A study of Rattus norvegicus and Mus musculus with 18 samples.

Results

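The nuclear genes of the mitochondrial respiratory chain and ATP synthase were examined in the embryonic kidney. Members were the genes whose only annotated symbol begins with Nduf, Uqcr, Atp5, Sdh followed by a letter from a to d, or Cox4 to Cox8, in the mouse table or any of the 3 rat tables. The rule found 101 genes in all, of 29162 mouse and rat gene symbols counted together. It gave 94 of 18193 genes in mouse, measured by 185 probe sets, and 85 genes in rat, with 78 found in both species. The rat genes were spread over 3 array designs, with 55 on the first, 23 on design B and 29 on design C, and a few were on more than 1 design. By their symbols the rule also counted the rat pseudogenes Cox6c-ps1 and Ndufa13-ps1 and the paralogue Ndufa10l1. In mouse the members comprised 34 complex I subunits, 4 of complex II, 8 of complex III, 10 of complex IV, 17 of complex V, 12 assembly factors, 8 isoforms known from particular tissues and Cox7a2l. The prefix Nduf also brought in Ndufa4, first described as a complex I protein and now placed in complex IV, where it is counted here. Symbols stand as the arrays' annotation gives them, so the ATP synthase genes carry older names in mouse than in rat.

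Complexes I to IV pass electrons from NADH and succinate to oxygen and pump protons across the inner mitochondrial membrane, except for complex II, which pumps none and is also an enzyme of the tricarboxylic acid cycle. Complex V, the ATP synthase, lets the protons return and makes ATP. Most subunits are encoded in the nucleus and are present in nearly every cell, while a few subunits of complexes IV and V come in alternative forms, some of them largely confined to striated muscle, testis or lung. In the developing kidney the branching ureteric bud and the mesenchyme around it grow side by side, and the mature tubules that arise later are among the tissues richest in mitochondria.

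The mouse groups were ureteric bud tips, bud stalks and metanephric mesenchyme, dissected at embryonic stage E12.5, from pools of about 1000 tips, 350 stalks and 300 mesenchymes. The rat groups were whole ureteric buds and metanephric mesenchyme at embryonic stage E13.5, from about 1200 buds and 240 mesenchymes, and the same rat tissues were applied to all 3 rat designs. All tissues were separated after 10 min in DNase and trypsin, and the labels used here name no strain or genotype. Each tissue had 2 arrays per design, which were 2 labelings of 1 pooled RNA, so every p-value measures the spread of labelling and hybridisation and not that between animals. Of the 18 arrays, the 3 that carried the second labelling of rat bud RNA stood apart, with a GAPDH 3′ to 5′ signal ratio between 4.26 and 5.28 against 1.25 to 1.47 on the other 9 rat arrays. In bulk tissue, fewer cells of a type and less RNA per cell cannot be told apart.

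The dissected tissues held the cells their labels name. The summed intensity of 8 bud epithelium markers, among them Calb1, Cdh1 and Ret, was 26422 and 25796 on the tip arrays, 14035 and 14345 on the stalk arrays and 561 and 486 on the mesenchyme arrays. The stalks differed from the tips in other cell types too. The 6 stromal markers summed to 1084 and 859 in tips, 10868 and 10640 in stalks and 9287 and 9184 in mesenchyme. The 12 striated muscle markers summed to 541 and 598 in tips, 2138 and 2289 in stalks and 1139 and 1161 in mesenchyme. Most of the stalk sum was 1 gene, the cardiac actin Actc1, with 48.2 and 63.3 in tips, 1532 and 1690 in stalks and 308 and 310 in mesenchyme. Of the 7 muscle markers tested between stalks and mesenchyme, Actc1 was higher in stalks (2.32, adjusted p = 1.6e-06), while the other 6 had differences below zero, of which that of Des, an intermediate filament gene, passed (-1.08, adjusted p = 0.000428). The 4 measured erythroid markers summed to 8680 and 9196 in tips, 16520 and 16442 in stalks and 22328 and 21994 in mesenchyme. The 6 nephron progenitor markers, among them Six2 and Eya1, summed to 792 and 726 in tips, 1593 and 1565 in stalks and 6078 and 6020 in mesenchyme. On the first rat design the bud epithelium markers summed to 4901 and 4997 in buds and 827 and 880 in mesenchyme. No marker on any list was listed at 0. None of these lists was needed to choose a member, and their part in the differences below was not tested.

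The members' probe sets were among the brighter signals and were nearly level across the mouse tissues. The median member had a log2 intensity of 10.77 and 10.84 on the tip arrays, 10.87 and 10.91 on the stalk arrays and 10.89 and 10.91 on the mesenchyme arrays, where the median of all tested probe sets was 7.66 on each array. A gene was represented by its brightest probe set with a single symbol, and 90 of the 94 mouse genes reached the table's median intensity of 49.3 in at least 1 tissue and were tested. For 79 of these 90 genes the highest tissue mean was less than 1.2 times the lowest, which was 87.8% of them against 49.1% of all tested probe sets. The largest such ratio of any member was 1.39.

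Between tips and stalks, 6 of 90 members were higher and 10 were lower in tips at an adjusted p under 0.05, with values and roles given by complex below. That is 17.8% of the members, where 28.6% of all 23919 tested probe sets passed, 13.9% higher and 14.8% lower. No member passed with a difference of 1.5-fold or more, against 10.9% of all probe sets. The members' median log2 difference was -0.03 against 0.06 for all probe sets, and single members lay between -0.48 and 0.31. Only 7 members, or 7.78%, differed by more than 1.2-fold, against 36.6% of all probe sets. Among probe sets with a mean log2 intensity of 10 or more the shares were 3.12% of 64 members and 22.2% of all 2541. The counts moved with single arrays and with the fit. Leaving out either stalk array gave 0 higher and 4 lower, leaving out the second tip array gave 3 higher, and a fit that pairs same-numbered labelings gave 12 higher and 19 lower, where 41.9% of all probe sets passed. With the values as deposited, without further normalisation, 0 were higher and 2 lower.

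Against mesenchyme, 4 members were higher and 15 lower in tips, or 21.1%, where 33.7% of all probe sets passed, 16.1% higher and 17.6% lower. Again no member passed at 1.5-fold, against 15.7% of all probe sets. The median difference was -0.01 for members and 0.01 for all, and 6.67% of members against 36.6% of all probe sets differed by more than 1.2-fold. None of the 64 bright members did, against 24.2% of bright probe sets. Without the first tip array 11 members were higher, without the second 7, and without either mesenchyme array 2 were higher and 8 lower, while the paired fit gave 11 and 20, with 43.2% of all probe sets passing. With the values as deposited 4 were higher and 5 lower.

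Stalk and mesenchyme were closer still. No member was higher in stalks and 1 was lower, or 1.11%, where 13.1% of all probe sets passed, 8.17% higher and 4.93% lower. At an unadjusted p under 0.05 the limma fit gave 15 members, or 16.7%, against 25.2% of all probe sets. The members ranged from -0.31 to 0.16 around a median of 0.01, and 1 of 90 differed by more than 1.2-fold, against 21.4% of all probe sets. At 1.5-fold no member passed, against 6.16% of all probe sets. The single call was lost without either stalk array or either mesenchyme array, and 1 other member was higher without either tip array. The paired fit gave 5 higher and 2 lower, with 22.6% of all probe sets passing. With tips and stalks averaged as whole bud, 3 members were higher and 5 lower than in mesenchyme, or 8.89%, against 25% of all probe sets, 12.1% higher and 12.9% lower, and at 1.5-fold again none, against 9.95%. Without the first or the second tip array 6 members were higher, without the first of these 8 were lower, without a stalk array 0 were lower, without a mesenchyme array 1 was lower, and the paired fit gave 7 and 11, with 34.4% of all probe sets passing. Scaling to a common trimmed mean gave 1 higher and 1 lower, and the values as deposited 2 higher and 0 lower. These 4 mouse comparisons share arrays, so their values stand side by side and are not independent of each other.

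**Figure D1:**
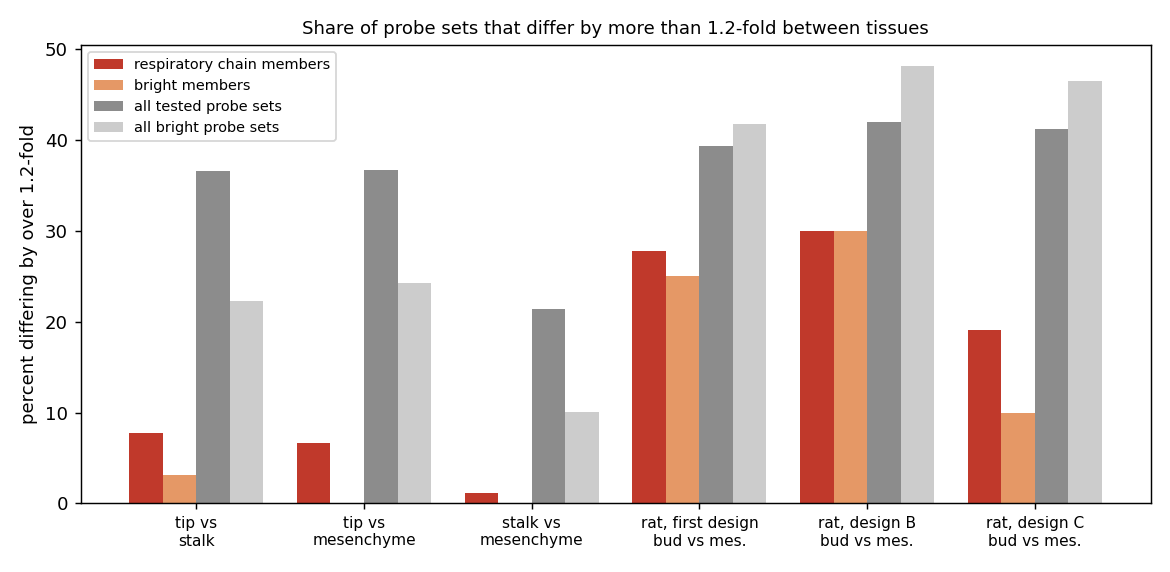
Percentage of probe sets (y axis) that differ by more than 1.2-fold between tissues in 3 mouse and 3 rat comparisons (x axis), for respiratory chain members (red), members with a mean log2 intensity of 10 or more (orange), all tested probe sets (dark grey) and all bright tested probe sets (light grey). In mouse the members reach 7.78%, 6.67% and 1.11%, against 36.6%, 36.6% and 21.4% of all probe sets, and a missing orange bar stands for 0.

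By complex, the medians of the mouse differences lay within 0.1 of zero on the log2 scale for complexes I to V in all 3 pairs of tissues, while the members of a complex spread to both sides. Between tips and stalks, complex I had a median of -0.07, with 26 of 33 subunits below zero, and complex II had -0.09. Of all 23919 tested probe sets 9847 were below zero, as were 1172 of the 2541 with a mean log2 intensity of 10 or more, whose median was 0.02. The medians were 0.04 for complex III, -0.06 for complex IV and -0.02 for complex V, against 0.06 for all tested probe sets. Between tips and mesenchyme the medians were -0.07, -0.07, 0.06, -0.03 and -0.02 for complexes I to V, and between stalks and mesenchyme 0.05, 0.01, -0.01, 0.03 and 0.01. The 12 assembly factors had medians of 0.06, 0.02 and -0.04 in these 3 comparisons. The 5 tested tissue isoforms, all dimmer than the median member, had 0.14, 0.01 and -0.13.

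**Figure D2:**
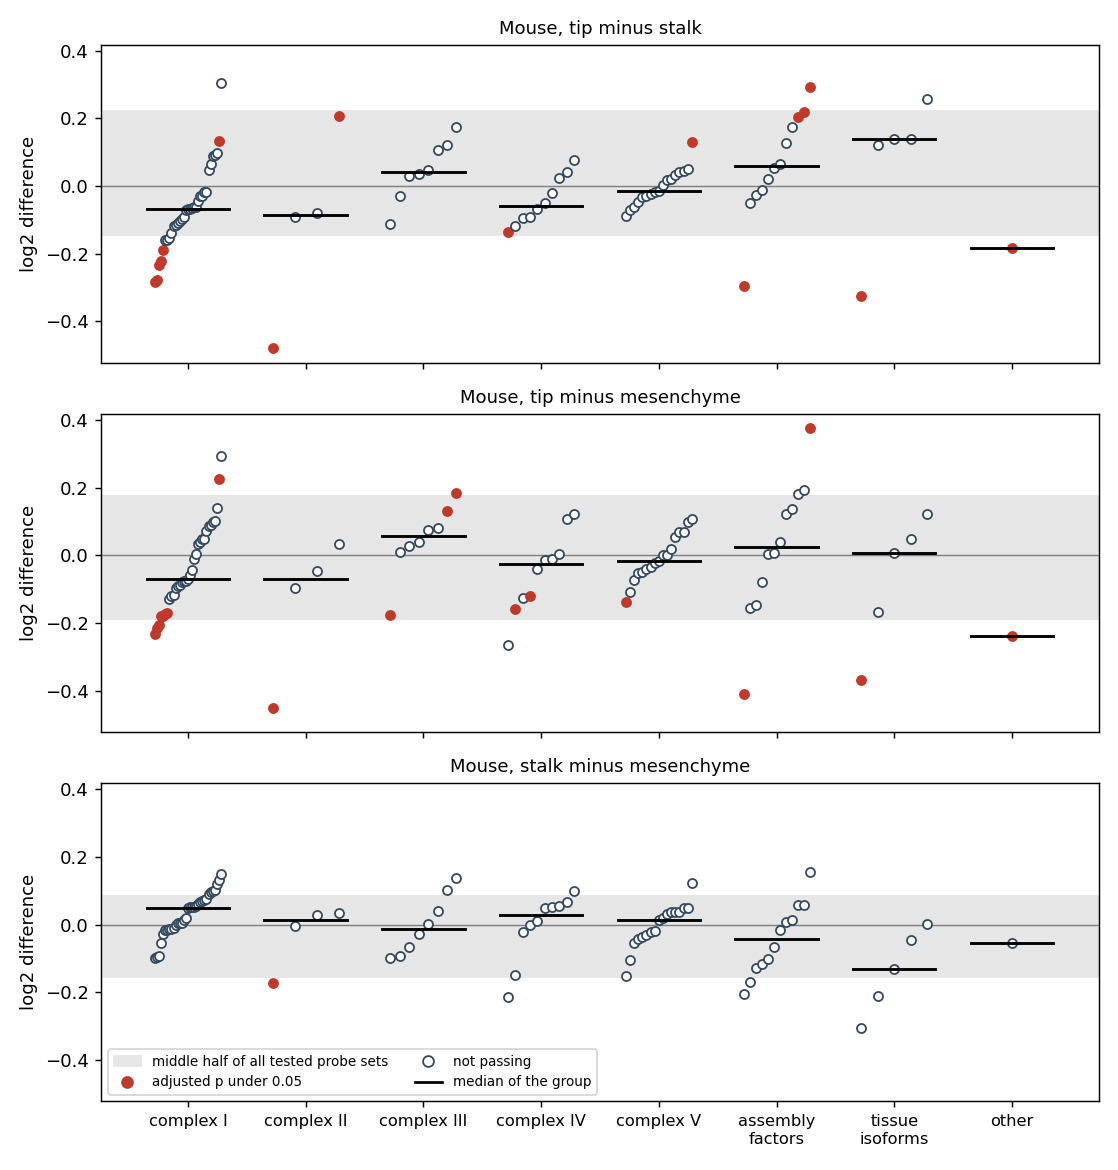
Log2 difference of each tested mouse member (y axis) by complex (x axis), for tip minus stalk, tip minus mesenchyme and stalk minus mesenchyme from top to bottom. Filled red points passed at an adjusted p under 0.05, black bars are group medians and the grey band is the interquartile range of all 23919 tested probe sets. Sdhc, at -0.48 and -0.45 in the upper panels, lies lowest of all members.

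Complex I, the NADH dehydrogenase, had 33 tested subunits, of which 1 was higher and 5 were lower in tips than in stalks, or 18.2%, where 28.6% of all probe sets passed. Against mesenchyme 1 was higher and 7 were lower in tips, or 24.2%, where 33.7% of all probe sets passed. Ndufb11, an accessory subunit of the membrane arm, had intensities of 2911 and 2950 in tips, 3503 and 3607 in stalks and 3245 and 3392 in mesenchyme. Both tip arrays were below all 4 others, and the difference from stalks was -0.28 (SE 0.04, adjusted p = 0.000939), a ratio of 0.825. Its 2 other probe sets gave -0.29 (adjusted p = 0.00125) and -0.15 (adjusted p = 0.0865). Ndufs7, an iron-sulfur subunit next to the quinone site, had 1191 and 1129 in tips, 1445 and 1385 in stalks and 1422 and 1279 in mesenchyme. It fell by 0.28 relative to stalks (adjusted p = 0.00717) and by 0.22 relative to mesenchyme (adjusted p = 0.0211), but without the first stalk array the difference from stalks had an adjusted p of 0.0695, and the difference from mesenchyme had 0.139 without the first mesenchyme array and 0.0801 without the second tip array. Its other probe set differed from stalks by -0.04 (adjusted p = 0.558).

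Named after their values were seen, the other subunits lower in tips than in stalks were the accessory subunits Ndufa8 (-0.23), Ndufb9 (-0.22) and Ndufa13 (-0.19), the last also known as the cell death regulator GRIM-19. The calls were lost for Ndufa8 without the second stalk array (adjusted p = 0.0570) and for Ndufa13 without the first stalk, the second stalk or the second tip array (adjusted p of 0.0666, 0.104 and 0.0522). The other probe sets of Ndufb9 gave -0.11 (adjusted p = 0.0833) and, at much lower intensity, 0.34 (adjusted p = 0.186), and the mean of its 3 probe sets differed between tips and stalks by 0.00 (adjusted p = 0.988). Ndufab1, the acyl carrier protein of mitochondria, was the subunit that was higher in tips, with 3178 and 3135 in tips, 2884 and 2864 in stalks and 3073 and 3069 in mesenchyme (tip minus stalk 0.13, adjusted p = 0.0206, and 0.125 and 0.148 without a stalk array). The Ndufab1 call was also lost with the mean of all its probe sets and without probe sets that carry cross-hybridisation suffixes. Over 15 alternatives its tip minus stalk difference ranged from 0.03 to 0.18. Against mesenchyme the higher subunit was Ndufb7, a membrane-arm subunit, with 1704 and 1774 in tips, 1583 and 1677 in stalks and 1446 and 1524 in mesenchyme. Its tip minus mesenchyme difference was 0.23 (SE 0.05, adjusted p = 0.00676), or an adjusted p of 0.0535 without the first mesenchyme array. The largest positive difference of any member between tips and stalks was that of Ndufb1, a small membrane-arm subunit with only 155 and 174 in tips, 128 and 132 in stalks and 136 and 126 in mesenchyme, and it did not pass (0.31, adjusted p = 0.0791). The core subunits Ndufs1 and Ndufv1, which carry iron-sulfur clusters and the NADH-binding flavin, were near level, with tip minus stalk differences of -0.07 (adjusted p = 0.398) and -0.10 (adjusted p = 0.108).

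In complex II, succinate dehydrogenase, the 4 subunits did not move together. The flavoprotein Sdha, which oxidises succinate, had 2104 and 2139 in tips, 2229 and 2297 in stalks and 2280 and 2259 in mesenchyme, a tip minus stalk difference of -0.09 with a 95% interval from -0.18 to -0.00 (adjusted p = 0.11). The iron-sulfur subunit Sdhb had 1790 and 1929 in tips, 1944 and 1983 in stalks and 1897 and 1941 in mesenchyme (-0.08, 95% interval -0.18 to 0.03, adjusted p = 0.248). The membrane anchors Sdhc and Sdhd moved in opposite directions between tips and stalks.

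Sdhc had 866 and 725 in tips, 1125 and 1100 in stalks and 1144 and 1038 in mesenchyme, so both tip arrays lay below all 4 others. The tip minus stalk difference of -0.48 (SE 0.08, 95% interval -0.67 to -0.29, adjusted p = 0.00256), a ratio of 0.717, was the largest of any member, and against mesenchyme it was -0.45 (adjusted p = 0.00262). It passed under all 15 alternatives tried in both comparisons. The other tested Sdhc probe set, however, had 493 and 618 in tips, 530 and 560 in stalks and 585 and 713 in mesenchyme, with overlapping arrays, and its differences were 0.02 (adjusted p = 0.923) and -0.22 (adjusted p = 0.19). The difference from stalks seen with the brighter probe set was not seen with the dimmer one.

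Sdhd had 1551 and 1651 in tips, 1387 and 1383 in stalks and 1521 and 1608 in mesenchyme, with both stalk arrays below all others. It was higher in tips than in stalks by 0.21 (SE 0.05, adjusted p = 0.0127) and was the 1 member lower in stalks than in mesenchyme (-0.17, adjusted p = 0.0499). The first difference had an adjusted p of 0.0820 and 0.0829 without a stalk array and 0.0527 without the second tip array. The second had an adjusted p between 0.0702 and 0.253 without a stalk or mesenchyme array. The other Sdhd probe set had 345 and 359 in tips, 390 and 373 in stalks and 381 and 448 in mesenchyme, and its tip minus stalk difference was -0.11 (adjusted p = 0.368).

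**Figure D3:**
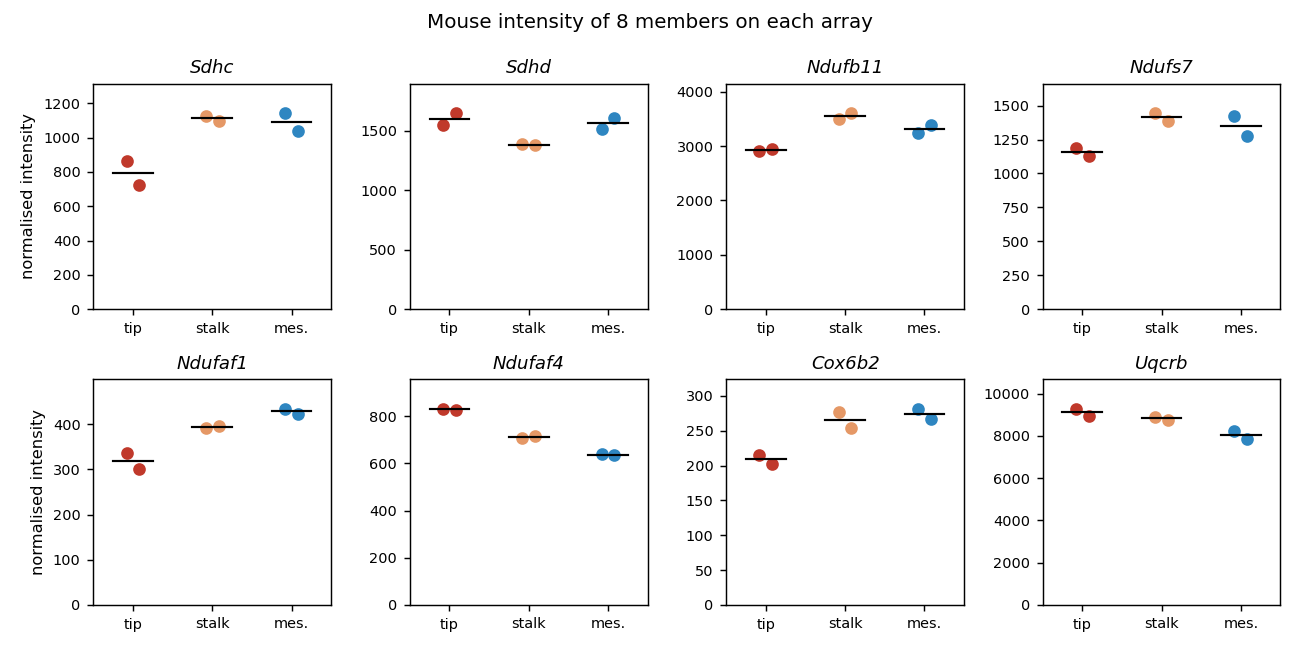
Normalised intensity (y axis, linear, from zero) of 8 mouse members on the 2 tip (red), 2 stalk (orange) and 2 mesenchyme (blue) arrays, with black lines at tissue means. Tips lie below the other arrays for Sdhc, Ndufb11, Ndufs7, Ndufaf1 and Cox6b2 and above them for Ndufaf4 and Uqcrb, while stalks lie below them for Sdhd.

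Complex III, which passes electrons from ubiquinol to cytochrome c, had no call among 8 subunits between tips and stalks (3 at an unadjusted p under 0.05 in the limma fit). Against mesenchyme, 2 were higher and 1 was lower in tips. Uqcrb, the ubiquinone-binding protein, had 9284 and 8961 in tips, 8896 and 8757 in stalks and 8226 and 7835 in mesenchyme. All 4 bud arrays were above both mesenchyme arrays, and the tip minus mesenchyme difference was 0.18 (SE 0.04, adjusted p = 0.00625), or an adjusted p of 0.0531 without the second mesenchyme array. Its other probe set gave 0.02 (adjusted p = 0.849). The core protein Uqcrc2 was higher by 0.13 (adjusted p = 0.0486), a call lost without any 1 array other than the second tip array (adjusted p between 0.0501 and 0.24). The hinge protein Uqcrh went the other way, with 3519 and 3340 in tips, 3715 and 3693 in stalks and 3910 and 3850 in mesenchyme, a tip minus mesenchyme difference of -0.18 (adjusted p = 0.00731).

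In complex V, the ATP synthase, the 17 subunits lay between -0.09 and 0.13 in tips relative to stalks, between -0.14 and 0.11 in tips relative to mesenchyme and between -0.15 and 0.12 in stalks relative to mesenchyme. The genes Atp5g1, Atp5g2 and Atp5g3 encode the same mature c subunit of the rotor ring with different targeting sequences. Atp5g1 had 1766 and 1882 in tips, 1867 and 1905 in stalks and 1849 and 1796 in mesenchyme, with overlapping groups. Atp5g3 had 5931 and 5914 in tips, 5900 and 5914 in stalks and 5822 and 6363 in mesenchyme, again with overlap. Atp5g2 was the 1 subunit that passed between tips and stalks, with 3572 and 3534 in tips, 3203 and 3286 in stalks and 3242 and 3351 in mesenchyme. Its difference of 0.13 (SE 0.04, adjusted p = 0.0304) no longer passed when either tip or either stalk array was left out. The call was also lost with the mean of all its probe sets, and the difference ranged from 0.06 to 0.17 over 15 alternatives. Atp5l, the g subunit of the membrane part, was lower in tips than in mesenchyme (-0.14, adjusted p = 0.038, and 0.0769 to 0.163 without any 1 array other than the first tip array). The catalytic subunit genes Atp5a1 and Atp5b had tip minus stalk differences of 0.03 (adjusted p = 0.547) and -0.02 (adjusted p = 0.797).

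Assembly factors help to build the complexes and are not part of the finished enzymes. Of 12 tested, 3 were higher and 1 was lower in tips than in stalks, or 33.3%, and 1 was higher and 1 lower than in mesenchyme, or 16.7%, where 28.6% and 33.7% of all probe sets passed. Ndufaf4, a complex I assembly factor, was graded across the tissues, with 832 and 828 in tips, 706 and 715 in stalks and 638 and 634 in mesenchyme, and no array of a tissue overlapped with those of another. Its differences were 0.22 for tip minus stalk (adjusted p = 0.00894), 0.38 for tip minus mesenchyme (SE 0.05, adjusted p = 0.00033) and 0.16 for stalk minus mesenchyme (adjusted p = 0.0715, and 0.0371 in the paired fit). The second of these passed under all 15 alternatives, and the first was lost without either stalk array (adjusted p = 0.0927 and 0.0681). A separate Ndufaf4 probe set showed 396 and 364 in tips, 310 and 278 in stalks and 308 and 266 in mesenchyme, with 0.35 for tip minus stalk (adjusted p = 0.0245) and 0.39 for tip minus mesenchyme (adjusted p = 0.0131).

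Ndufaf1, which acts on the membrane arm of complex I, ran in the opposite order, with 337 and 300 in tips, 393 and 395 in stalks and 434 and 422 in mesenchyme. It was lower in tips than in stalks (-0.30, SE 0.07, adjusted p = 0.0171) and than in mesenchyme (-0.41, SE 0.07, adjusted p = 0.0025). The mesenchyme difference passed under all 15 alternatives, while the stalk difference had adjusted p of 0.111 and 0.117 without a stalk array and 0.0565 without the second tip array. Ndufaf6 had 216 and 211 in tips, 172 and 171 in stalks and 185 and 184 in mesenchyme (tip minus stalk 0.29, adjusted p = 0.042), and it missed the threshold when any 1 of the 6 arrays was left out, with adjusted p between 0.0525 and 0.232. Ndufaf8, named after its value was seen, was higher in tips than in stalks by 0.20 (adjusted p = 0.0235, and 0.192, 0.0820 and 0.0693 without the first stalk, the second stalk and the second tip array). The 4 complex II assembly factors Sdhaf1 to Sdhaf4 had no call in any mouse comparison.

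Complex IV, cytochrome c oxidase, is where most of the alternative isoforms occur, and the forms found in most cells were bright and near level in mouse. Cox4i1, the general form of subunit 4, had 4812 and 4869 in tips, 5211 and 5298 in stalks and 5102 and 5429 in mesenchyme. Both tip arrays were lowest, and the difference of -0.12 passed against mesenchyme (adjusted p = 0.0486) but not against stalks (adjusted p = 0.0591). The mesenchyme call was lost without any 1 of 5 arrays, the first mesenchyme array being the exception, with adjusted p between 0.0766 and 0.264. Cox6a1, the general form of subunit 6a, had 7259 and 7233 in tips, 7445 and 7761 in stalks and 7069 and 7569 in mesenchyme. Cox6b1 had 4863 and 5132 in tips, 5175 and 5477 in stalks and 4933 and 5342 in mesenchyme. Cox7a2 had 5592 and 5822 in tips, 5749 and 5835 in stalks and 5783 and 5724 in mesenchyme, and Cox8a had 1778 and 2000 in tips, 1806 and 1906 in stalks and 1946 and 2176 in mesenchyme. No comparison of these 4 genes passed.

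The muscle forms were near or below the intensity at which a probe set was tested. Cox6a2, the heart and skeletal muscle form of subunit 6a, had 49.2 and 68.2 in tips, 54.4 and 49.9 in stalks and 50.6 and 53.6 in mesenchyme. The muscle forms Cox7a1, with 26.3 and 19.3 in tips, 18.6 and 15.7 in stalks and 14.7 and 14.6 in mesenchyme, and Cox8b, with 39.4 ± 3.61 in tips, 30.7 ± 1.04 in stalks and 33.0 ± 1.26 in mesenchyme (mean ± SD, n = 2 arrays), were not tested. Cox4i2, the lung form of subunit 4, had 54.7 and 56.4 in tips, 47.2 and 50.7 in stalks and 59.3 and 69.8 in mesenchyme, and its stalk minus mesenchyme difference, the lowest of any member there, did not pass (-0.31, adjusted p = 0.197).

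The testis form Cox6b2 was the only tissue isoform that passed a mouse test. It had 215 and 202 in tips, 278 and 254 in stalks and 281 and 267 in mesenchyme, with both tip arrays below all others. The differences were -0.33 from stalks (SE 0.09, adjusted p = 0.0238) and -0.37 from mesenchyme (SE 0.09, adjusted p = 0.011). The first had adjusted p of 0.238 and 0.0816 without a stalk array and 0.0606 without the second tip array, and the second had 0.0729 without the first mesenchyme array. Cox8c, also known from testis, varied more between labelings than between tissues, with 211 and 344 in tips, 204 and 243 in stalks and 218 and 310 in mesenchyme. Cox7b2, a testis form of subunit 7b, had between 7.33 and 8.53 on all 6 arrays and was not tested.

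Ndufa4l2, a relative of Ndufa4 that is induced by low oxygen in many cells, was dim, with 76.0 and 108 in tips, 83.5 and 78.7 in stalks and 79.4 and 102 in mesenchyme (tip minus stalk 0.14, adjusted p = 0.591). Ndufa4 itself had 2612 and 2442 in tips, 2740 and 2818 in stalks and 2859 and 2786 in mesenchyme, with both tip arrays lowest. Its differences were -0.14 from stalks (adjusted p = 0.0481, and 0.0658 to 0.263 without any 1 array other than the first tip array) and -0.16 from mesenchyme (adjusted p = 0.0225, and 0.0567 to 0.117 without a mesenchyme array or the second tip array). Cox7a2l, a factor for joining complexes III and IV that resembles the subunit 7a forms, had 1647 and 1729 in tips, 1880 and 1956 in stalks and 1887 and 2104 in mesenchyme. It was lower in tips than in stalks (-0.18, adjusted p = 0.0433, and 0.11 to 0.234 without a stalk array or the first tip array) and than in mesenchyme (-0.24, adjusted p = 0.0116, and 0.0757 without the second mesenchyme array).

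**Figure D4:**
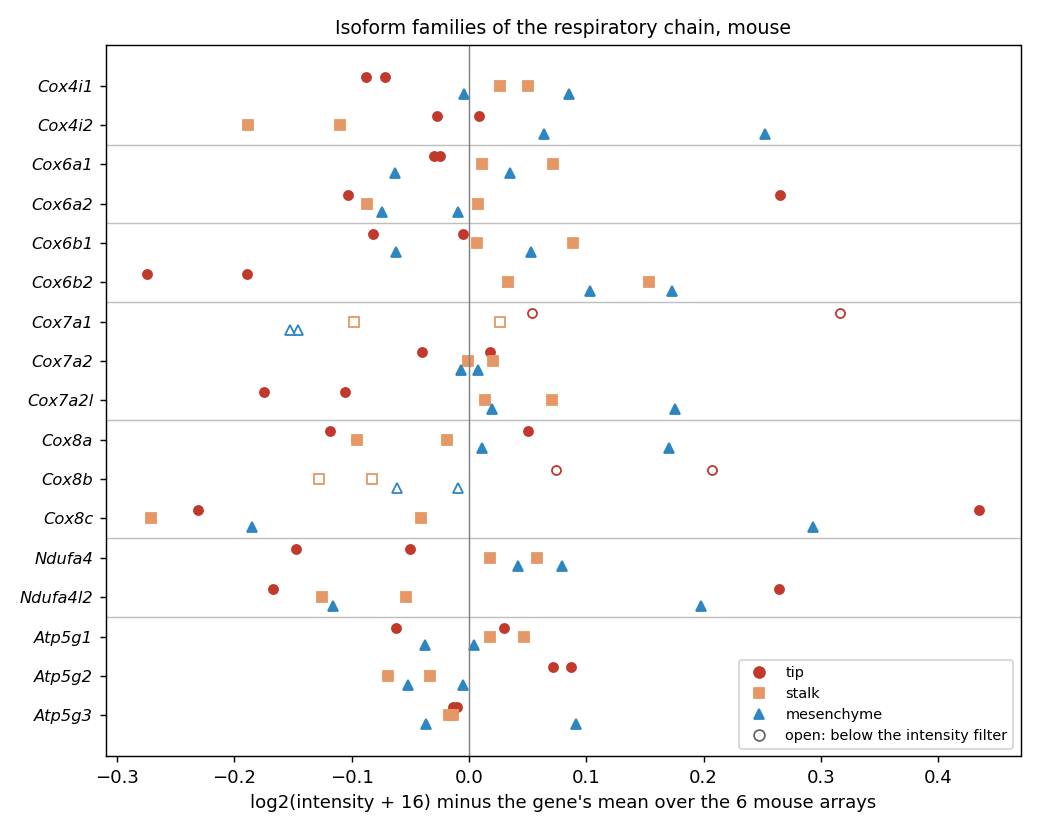
Isoform families in mouse (rows, separated by lines), each array plotted as log2(intensity + 16) minus the gene's mean over the 6 arrays (x axis), with tips as red circles, stalks as orange squares and mesenchyme as blue triangles. Open symbols mark genes below the intensity filter. The 2 tip arrays of Cox6b2 lie left of all others, while the arrays of Cox8c spread within each tissue.

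The sequences around the transcription starts of the rat members were searched for 3 motifs. Promoters were taken for rat from RefSeq, build GRCr8, and 74 of the 85 rat members matched, with 300 bases for each gene, 250 of them before the start of transcription. The motifs searched on both strands were CCGGAAG, the core bound by ETS-family factors such as NRF2, the NRF1 palindrome, and AAGATGGC, the core bound by YY1. At least 1 of the motifs was in 42 of 74 members, or 56.8%, against 17.9% of 21851 protein-coding promoters in the table. By motif the shares were 29.7% against 10.7% for CCGGAAG, 18.9% against 5.67% for the NRF1-type pattern and 21.6% against 3.67% for AAGATGGC. Matches to different motifs overlapped in 0 members. All 4 complex II promoters held a motif, as did 9 of 13 for complex V, 4 of 6 for complex III, 16 of 30 for complex I, 3 of 8 for complex IV and 1 of 4 for the tissue isoforms. A match is a run of letters and not a shown binding site, and the absence of a match says only that these letters are not in the window.

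The 5 sequences below are shown for the contrast between general and muscle forms and for Sdha, 250 bases before to 30 after the start, with matches to the motifs in capitals, and were chosen after their matches were seen. Cox4i1 and Cox8a are general forms with 2 and 3 matches, Cox6a2 and Cox8b are muscle forms with 0, and Sdha has 3 matches to the NRF1-type pattern. These genes do not stand for all forms. A motif was in only 3 of 8 complex IV subunits, in the tissue isoform Ndufa4l2 and in 17.9% of all promoters.
Cox4i1, chr19:65630133-65630412, plus strand: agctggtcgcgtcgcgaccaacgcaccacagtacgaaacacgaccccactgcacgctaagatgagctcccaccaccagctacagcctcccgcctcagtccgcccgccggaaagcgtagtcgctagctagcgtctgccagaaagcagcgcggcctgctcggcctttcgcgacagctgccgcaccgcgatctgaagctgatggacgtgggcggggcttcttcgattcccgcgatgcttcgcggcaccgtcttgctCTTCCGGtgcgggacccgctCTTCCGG
Cox8a, chr1:213833594-213833873, minus strand: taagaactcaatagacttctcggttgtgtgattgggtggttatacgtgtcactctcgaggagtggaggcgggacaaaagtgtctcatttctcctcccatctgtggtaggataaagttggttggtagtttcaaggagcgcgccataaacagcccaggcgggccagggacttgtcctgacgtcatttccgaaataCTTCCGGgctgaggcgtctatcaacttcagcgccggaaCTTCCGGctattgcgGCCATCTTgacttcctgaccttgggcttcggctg
Cox6a2, chr1:192219687-192219966, minus strand: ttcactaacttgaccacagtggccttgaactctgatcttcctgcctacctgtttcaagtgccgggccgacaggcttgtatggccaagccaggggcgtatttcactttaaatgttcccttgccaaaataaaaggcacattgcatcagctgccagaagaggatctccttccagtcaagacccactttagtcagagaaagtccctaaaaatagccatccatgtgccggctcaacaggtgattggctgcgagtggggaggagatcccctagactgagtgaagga
Cox8b, chr1:205408244-205408523, minus strand: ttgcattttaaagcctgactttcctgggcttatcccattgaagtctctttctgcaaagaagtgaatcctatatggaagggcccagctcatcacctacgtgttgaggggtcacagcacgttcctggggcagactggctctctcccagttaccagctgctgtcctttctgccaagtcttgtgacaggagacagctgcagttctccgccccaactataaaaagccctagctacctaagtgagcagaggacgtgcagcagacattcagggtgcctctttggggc
Sdha, chr1:30764303-30764582, plus strand: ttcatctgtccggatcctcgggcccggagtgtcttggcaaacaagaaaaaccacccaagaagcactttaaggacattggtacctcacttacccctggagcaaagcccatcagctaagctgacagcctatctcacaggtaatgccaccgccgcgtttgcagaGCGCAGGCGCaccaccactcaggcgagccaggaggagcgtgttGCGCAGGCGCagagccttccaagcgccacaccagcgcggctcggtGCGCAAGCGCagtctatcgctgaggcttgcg

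Genes of other mitochondrial functions give the setting for this evenness. Between tips and stalks, 19 of 76 tested mitochondrial ribosome genes were higher in tips and 1 was lower, with a median of 0.12, and 7 of 20 import genes were higher and 1 lower, with a median of 0.14. Of 17 tricarboxylic acid cycle genes 3 were higher and 4 lower (median -0.05), and of 46 cytosolic ribosome genes 2 were higher and 2 lower (median 0.01). Against mesenchyme the mitochondrial ribosome had 12 higher and 4 lower in tips (median 0.03), and between stalks and mesenchyme 1 and 1 (median -0.09). The shares are to be read against the 28.6%, 33.7% and 13.1% of all probe sets that passed. Among 27 genes for cytochromes, assembly and copper delivery, 5 were higher and 1 lower in tips than in stalks. They included Cox17, the copper chaperone of complex IV (0.35, adjusted p = 0.00178), and Cycs, cytochrome c (0.12, adjusted p = 0.0466).

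The adenine nucleotide carriers, which exchange ADP and ATP across the inner membrane, had calls in opposite directions. Slc25a5 had 6614 and 6633 in tips, 5032 and 5114 in stalks and 4721 and 4863 in mesenchyme, higher in tips by 0.38 (adjusted p = 7.32e-05) and 0.47 (adjusted p = 1.15e-05). Slc25a4, the heart and muscle form, had 4900 and 4721 in tips, 5968 and 5783 in stalks and 6471 and 6456 in mesenchyme, with differences of -0.29 (adjusted p = 0.000548) and -0.43 (adjusted p = 3.03e-05). The arrays of each tissue did not overlap for either gene. Ppargc1a, a coactivator of mitochondrial biogenesis genes, had 143 and 108 in tips, 90.5 and 81.9 in stalks and 37.9 and 38.2 in mesenchyme. It was higher by 1.38 in tips than in mesenchyme (adjusted p = 0.000143) and by 0.92 in stalks than in mesenchyme (adjusted p = 0.00437), while its tip minus stalk difference was 0.46 (adjusted p = 0.0551). These 5 genes were named after their values were seen.

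In rat, few members passed on any design. On the first rat design 2 of 54 tested members were higher in buds than in mesenchyme and 0 lower, or 3.7%, where 11.7% of all 4616 probe sets passed, 5.83% higher and 5.85% lower. On design B no member of 20 passed, where 17.4% of 4657 probe sets did, 9.45% higher and 7.95% lower, and 3 had an unadjusted p under 0.05 in the limma fit. On design C 0 of 21 were higher and 1 was lower, or 4.76%, where 11.2% of 4648 probe sets passed, 6.02% higher and 5.19% lower. At 1.5-fold 1 member passed on the first design, 0 on design B and 0 on design C, against 11%, 13.2% and 9.72% of all probe sets. The members' medians were 0.08, 0.09 and 0.03, and over the alternatives they ranged from 0.04 to 0.13, from -0.04 to 0.15 and from -0.03 to 0.09, so those of designs B and C had no settled direction. Shares beyond 1.2-fold were 27.8% of members against 39.3% of all probe sets on the first design, 30% against 42.0% on design B and 19.0% against 41.2% on design C.

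The rat counts turned on single arrays. Without the first bud labelling the first design gave 18 higher and 7 lower, design B 3 higher and design C 2 lower, and without the second bud labelling, the arrays with the high GAPDH ratio, the first design gave 4 higher and 2 lower, design B 1 higher and design C 0 of either. Without either mesenchyme array the first design gave 0 higher, and design C 0 lower. The standard deviation over members of the second minus the first labelling was 0.34, 0.26 and 0.27 for bud RNA on the 3 designs and 0.15, 0.15 and 0.35 for mesenchyme RNA, against 0.14, 0.06 and 0.11 for mouse tips, stalks and mesenchyme.

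The calls of the first design were those of Atp5f1e and Cox6b1. Atp5f1e, the epsilon subunit of the ATP synthase stalk, had 2643 and 2485 in buds against 1706 and 1441 in mesenchyme, 0.70 higher (SE 0.14, adjusted p = 0.0202). A different probe set of the gene gave 2058 and 1807 in buds against 1358 and 1185 in mesenchyme (0.60, adjusted p = 0.0412), and that on design B had 304 and 237 in buds against 323 and 263 in mesenchyme (-0.11, adjusted p = 0.667). Cox6b1 had 2280 and 2230 in buds against 1605 and 1416 in mesenchyme, 0.58 higher (SE 0.13, adjusted p = 0.0337), with a further probe set at 0.26 (adjusted p = 0.404). Without a mesenchyme array the adjusted p was 0.0681 and 0.225 for Atp5f1e and 0.152 and 0.342 for Cox6b1.

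Ndufs1 had 96.2 and 50.8 in buds against 139 and 170 in mesenchyme on the first rat design. Its bud mean of 73.5 was below the filter of 111 and its mesenchyme mean of 154 above it, so it was tested only through mesenchyme, and its difference of -0.97 (SE 0.26) did not pass (adjusted p = 0.0609). On design C a different Ndufs1 probe set had 218 and 218 in buds against 196 and 216 in mesenchyme (0.08, adjusted p = 0.629). The ATP synthase subunits Atp5f1a, with 973 and 485 in buds against 983 and 835 in mesenchyme, and Atp5f1d, with 1159 and 577 in buds against 1095 and 1007 in mesenchyme, were low on the second bud labelling alone. By class the medians on this design were 0.13 for 24 complex I subunits, 0.11 for 3 of complex III, 0.14 for 9 of complex IV and -0.11 for 9 of complex V. With each array left out in turn these medians ranged from 0.03 to 0.21, 0.04 to 0.18, 0.05 to 0.29 and -0.23 to 0.10. That of complex V had no settled direction. Among the isoforms, Cox4i2 had 719 and 754 in buds against 868 and 806 in mesenchyme (-0.18, adjusted p = 0.447), and Cox6a2, Cox8b and Ndufa4l2 lay between -0.12 and 0.04. The testis form Cox6b2, measured on design B, had 423 ± 44.1 in buds against 340.1 ± 33.9 in mesenchyme (mean ± SD, n = 2 arrays), and it did not pass in the limma fit (0.30, adjusted p = 0.164). Its bud arrays were above both mesenchyme arrays, where the mouse whole bud, the equally weighted mean of tips and stalks, differed from mesenchyme by -0.21 (adjusted p = 0.0855).

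On designs B and C together the single call was that of Sdhaf1, a factor that inserts iron-sulfur clusters into complex II. On design C it had 187 and 180 in buds against 278 and 278 in mesenchyme, a difference of -0.56 (SE 0.09, adjusted p = 0.0237), with adjusted p of 0.0510, 0.221 and 0.191 without the second bud array, the first or the second mesenchyme array. On design B another probe set had 207 and 281 in buds against 256 and 298 in mesenchyme (-0.18, adjusted p = 0.482). Rat Sdhc had 1215 and 1157 in buds against 660 and 1207 in mesenchyme, so the first mesenchyme array stood apart (0.40, adjusted p = 0.401), and its other probe set had 984 and 653 in buds against 1138 and 1283 in mesenchyme (-0.58, adjusted p = 0.153). Rat Sdhb had 1163 and 1052 in buds against 1366 and 1259 in mesenchyme (-0.24, adjusted p = 0.265), with no overlap, and Sdhd differed by 0.06 (adjusted p = 0.843). Sdha differed by 0.19 on the first design (adjusted p = 0.514) and by -0.15 on design B (adjusted p = 0.44). Of 16 rat members tested on more than 1 design, 7 had the same direction on every design, and the share over all genes is not given here.

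Set against the mouse whole bud, formed as the equally weighted mean of tips and stalks, 86 rat measurements of 72 genes could be compared with the mouse value of the same gene. The direction was the same in 39 and opposite in 47. Genes on several rat designs count more than once, and the share of all genes with the same direction is not given here. Of the 86 measurements 5 had passed in mouse, 3 in rat and 0 in both. The mouse whole bud genes that passed were Ndufaf4 (0.27, adjusted p = 0.00157), Ndufb7 (0.18, adjusted p = 0.0138) and Uqcrb (0.16, adjusted p = 0.00809) on the higher side. On the lower side were Ndufaf1 (-0.26, adjusted p = 0.016), Ndufb10 (-0.16, adjusted p = 0.0372), Ndufa6 (-0.15, adjusted p = 0.026), Uqcrh (-0.12, adjusted p = 0.0286) and Atp5l (-0.12, adjusted p = 0.0452), of which Ndufb10, Ndufa6 and Atp5l were named after their values were seen. Calls of the whole bud were lost for Ndufaf1 without a stalk or mesenchyme array (adjusted p 0.0617 to 0.113), for Ndufb7 without the first mesenchyme or the second stalk array (0.127 and 0.0596) and for Uqcrb without the second mesenchyme array (0.0947). Those of Ndufa6 and Uqcrh were lost without any 1 stalk or mesenchyme array (0.0849 to 0.142 and 0.0899 to 0.158). That of Ndufb10 was lost without the first mesenchyme, either stalk or the second tip array (0.0534 to 0.279), and that of Atp5l without any 1 array other than the first tip array (0.0676 to 0.225). In the paired fit Sdhc also passed (-0.21, adjusted p = 0.00235). The rat values were Ndufb7 -0.27 on design B, Uqcrh 0.47 on design B, Ndufa6 0.24 and Ndufb10 0.25 on the first design, none of which passed. A second Ndufb7 probe set on design B, however, had 685 and 694 in buds against 581 and 617 in mesenchyme, with no overlap and in the mouse direction (0.20, adjusted p = 0.277). A second Ndufa6 probe set on the first design had 212 and 252 in buds against 201 and 221 in mesenchyme, with overlap (0.13, adjusted p = 0.658). Rat Ndufaf4 and Uqcrb were below the filter, not tested and so not among the 86 measurements. On design B Ndufaf4 had 125 and 106 in buds against 64.9 and 54.2 in mesenchyme, without overlap and in the mouse direction. Its bud mean was 115, where the filter was 118. On design C Uqcrb had 56.0 and 78.3 in buds against 52.4 and 56.1 in mesenchyme, with overlap.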

How the data were processed

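The deposited data were linear intensity values of the authors, 1 per probe set and array, in a mouse table and 3 rat tables, and how they were summarised or scaled is not given in the sources used here. The members and gene lists were chosen with earlier results of these data known. Samples were grouped by their source labels. Intensities were quantile normalised within each table, transformed to log2(intensity + 16), which understates changes of dim genes, and control probe sets were dropped. A probe set was tested if a tissue's mean reached the table median (49.3 in mouse, 111, 118 and 115 in rat). Genes were named from the platform annotation. A gene was represented by its brightest probe set with 1 symbol, and 10, 6, 1 and 1 probe sets with several symbols that include a member were left out. Tests used limma 3.58.1 (R 4.3.3; lmFit, eBayes with trend) with Benjamini-Hochberg adjustment over all tested probe sets, with the 6 mouse arrays in 1 fit and each rat design in its own, 7 comparisons in all. The number of arrays, 2 per tissue, limits the precision, and an exact permutation test of 2 against 2 cannot go below p = 0.333.

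Mouse replicate numbers paired the samples: deviations of same-numbered arrays from their tissue means correlated at 0.47, 0.57 and 0.42, and the numbers come from the labels. Counts from the fit with the number as a block are given beside the mouse results where they differ. Members open to naming were all isoform-family genes and complex II subunits. So were the 5 largest and 5 smallest differences in each mouse comparison and the 3 largest and 3 smallest on each rat design. Not all of these were described above. Among those left out, Ndufs8 (0.15, adjusted p = 0.21) and Ndufaf2 (-0.21, adjusted p = 0.336) did not pass between stalks and mesenchyme. Alternatives were the deposited values, trimmed-mean scaling, other pseudocounts, no filter, the mean of all probe sets, probe sets without cross-hybridisation suffixes, no trend, the block and each array left out. The tests were tried on simulated data with known changes.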

Additional observations from a re-analysis of the deposited data

Results flagged for a closer look

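Each of 6 members had all bud arrays on one side of both mesenchyme arrays in mouse and on the opposite side in rat, and in every case the difference between the species was not tested. Other members had all bud arrays on the same side in both species. Atp5e (Atp5f1e in rat), Cox5a and Uqcrc2 on the first rat design and Ndufa1 on design C lay above mesenchyme. Cox4i2 on the first rat design and Atp5md (Atp5mk in rat) on design B lay below it. The share of all genes on opposite sides is not given here. The mouse value is the equally weighted mean of tips and stalks minus mesenchyme, on the log2 scale. On the first rat design, Ndufa6 had a bud minus mesenchyme difference of 0.235 in rat against -0.152 in mouse, Ndufb10 had 0.247 in rat against -0.162 in mouse, and Ndufv2, the complex I subunit with an iron-sulfur cluster beside Ndufv1, had -0.188 in rat against 0.0385 in mouse. On design B, Uqcrh had 0.472 in rat against -0.122 in mouse, Ndufb7 had -0.265 in rat against 0.179 in mouse, and Cox7c, a small complex IV subunit, had 0.176 in rat against -0.239 in mouse. None of the 6 rat values passed in the limma fits. For Ndufb7 the opposite direction rested on its brighter probe set on design B, while a second one had 685 and 694 in buds against 581 and 617 in mesenchyme, in the mouse direction (0.20, adjusted p = 0.277). A second Ndufa6 probe set had overlapping rat tissues (0.13, adjusted p = 0.658). The mouse probe set of Cox7c was dim, with 144 and 134 in tips, 143 and 145 in stalks and 179 and 161 in mesenchyme, and a separate rat probe set of Cox7c on design C gave -0.00.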

How the results depend on the processing

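The members' median difference lay between -0.05 and 0.00 for tip against stalk, -0.04 and -0.00 for tip against mesenchyme and -0.02 and 0.02 for stalk against mesenchyme over all alternatives. Every call was rerun under the alternatives, and 1 changed direction: Ndufb9 between tips and stalks, at 0.00 (0.00131, adjusted p = 0.988) with the mean of all probe sets. Calls of Sdhc between tips and both other tissues, Ndufb11 between tips and stalks, Ndufaf1 between tips and mesenchyme, and Ndufaf4 between tips and mesenchyme and between whole bud and mesenchyme passed under all 15, and every other call was lost under at least 1. The counts of members passing were less stable: 123 stayed within 1.5 times and 75 moved, and the cause was not tested.

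With the values as deposited, tip against stalk had 0 higher and 2 lower, tip against mesenchyme 5 lower, stalk and whole bud against mesenchyme 0 lower, and rat design B 1 higher. With trimmed-mean scaling, tip against mesenchyme had 2 higher, stalk against mesenchyme 0 lower, whole bud against mesenchyme 1 higher and 1 lower, and design B 1 higher. With a pseudocount of 1, stalk against mesenchyme had 0 lower. With no filter, stalk against mesenchyme had 1 higher and 0 lower, whole bud 2 lower and design B 1 higher. With the mean of all probe sets, stalk against mesenchyme had 0 lower, whole bud 1 higher and 10 lower, and the first rat design 1 higher and 1 lower. Without suffixed probe sets the first rat design had 1 higher. Without an intensity trend, tip against stalk had 2 higher and 4 lower, tip against mesenchyme 2 and 3, stalk against mesenchyme 0 lower, whole bud 1 and 1, and design B 2 higher.

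With the replicate block, tip against stalk had 12 higher and 19 lower, tip against mesenchyme 11 higher, stalk against mesenchyme 5 and 2, and whole bud 7 and 11. In rat, where same-numbered arrays share only a number (correlations 0.31, 0.22 and 0.29), the replicate block gave 1 lower on the first design and 2 higher on design B.

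With each array left out in turn, the counts ranged from 0 to 9 higher and 4 to 12 lower for tip against stalk, 2 to 11 and 8 to 14 for tip against mesenchyme, 0 to 1 and 0 to 1 for stalk against mesenchyme, and 2 to 6 and 0 to 8 for whole bud against mesenchyme. In rat they ranged from 0 to 18 and 0 to 7 on the first design, 0 to 3 and 0 to 0 on design B, and 0 to 0 and 0 to 2 on design C. A tissue left with 1 array is assumed to vary like the others.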

Other observations

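Single genes around the respiratory chain differed between tips and stalks, and some genes of the same list went opposite ways. Among tricarboxylic acid cycle genes, the isocitrate dehydrogenase subunit Idh3a was higher in tips than in stalks (0.35, adjusted p = 0.000443) and its partner Idh3b lower (-0.27, adjusted p = 0.00151). The heme A synthesis gene Cox10 was higher in tips than in stalks by 0.50. Of the import machinery, where more genes passed as higher in tips than as lower, the outer membrane pore Tomm40 was higher than in stalks (0.43). The inner membrane subunit Timm17b was lower in tips than in stalks (-0.33). These genes were chosen after their values were seen.

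In rat the mitochondrial ribosome had 3 of 12 tested genes higher in buds on the first design, 6 of 26 on design B and 1 of 43 on design C, with 0 lower on each. Of all probe sets on these designs 5.83%, 9.45% and 6.02% were higher in buds and 5.85%, 7.95% and 5.19% lower. Of the mitochondrially encoded genes, 3 were tested on the first rat design, with differences from 0.01 to 0.02, and 1 in mouse, with -0.29 for tip minus stalk.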
